A study of Homo sapiens with 12 samples.

Results

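The knock-down of GLE1 was set directly against the knock-down of DBP5 in U2OS cells, a human osteosarcoma cell line. The 6 arrays titled for these siRNAs, 3 for each, were taken out of the 12 arrays of the series by their titles, and no control array enters the difference between them. The other 6 arrays carried a control siRNA or an siRNA against IPPK, 3 arrays each. Cells of every group were transfected by lipofection with siRNA at 20 nM and cultured for 48 h, and RNA of the cytosolic fraction, taken after lysis with the detergent NP40, was hybridised to one-colour arrays. A slide took 1 array per siRNA and 3 slides were used, so replicate 1, 2 and 3 of the GLE1 siRNA sat beside replicate 1, 2 and 3 of the DBP5 siRNA. The study's methods call the 3 replicates independent array experiments. Whether each had its own transfection is not given in the sources used here, and p-values measure the spread between these arrays. Each siRNA lay at the same position on every slide, so position and siRNA cannot be told apart. Nuclear or total RNA was not analysed here, and a lower cytoplasmic level can mean less RNA made, less RNA exported or less RNA kept.

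DBP5, whose gene is now named DDX19B, is a DEAD-box RNA helicase that sits on the cytoplasmic face of the nuclear pore. It strips export proteins from an mRNA as it leaves the pore, so that the mRNA is released into the cytoplasm and cannot slide back. GLE1, bound to inositol hexakisphosphate, stimulates the ATPase of DBP5, and IPPK is the kinase that makes this inositol phosphate. The proteins act at the same step, and both GLE1 and DBP5 have further roles in translation. A direct comparison of their knock-downs therefore asks which cytoplasmic mRNAs respond differently when the helicase or its activator is lowered.

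The sequences of the siRNAs are shown because they are the treatments that differ between the groups. The methods give 1 siRNA against DBP5 and 2 against GLE1, and the sources used here do not say which GLE1 siRNA was on the arrays. Sense strands are written 5′ to 3′, with RNA bases in lower case and deoxy bases at the 3′ end in capitals.
DBP5 siRNA 1: caagguguuuguucuggaugaggCT
GLE1 siRNA 1: gagaagccuugggacaccaagagaa
GLE1 siRNA 2: ccgucacagagcaaagauucucaAC
The longest run of bases shared between the sense strand for DBP5 and those for GLE1 was 5 bases (GLE1 siRNA 1) and 4 bases (GLE1 siRNA 2). Every difference below is one between cells that received different siRNA sequences. Effects of a sequence on transcripts other than its target cannot be told apart from effects of the target. By the study's methods, the control siRNAs and GLE1 siRNA 1 came from another supplier than DBP5 siRNA 1 and GLE1 siRNA 2. Where supplier or duplex format differs between groups, it cannot be told apart from the target either.

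An array held 34127 probes for human transcripts, of which 73.4% to 77% were well above background on the GLE1 siRNA arrays and 75.7% to 77.7% on the DBP5 siRNA arrays. Values below are normalised intensities, the background-subtracted brightness of a probe after cyclic loess between arrays, given for replicate 1, 2 and 3 in that order. A log2 difference is GLE1 knock-down minus DBP5 knock-down, its SD is that of the differences on 3 slides, and a gene is called lower or higher where limma's Benjamini-Hochberg adjusted p lay under 0.05. Pearson's r across probes was 0.996 to 0.997 between arrays of the same siRNA and 0.977 to 0.982 between a GLE1 and a DBP5 siRNA array. All 10 mesenchymal and osteosarcoma markers checked were well above background on the 6 arrays. Of 13 markers of other lineages, 7 were also well above background on all 6, KRT18 (97800 to 127000) and KRT8 (10600 to 12500) among them, and the epithelial keratin KRT5 was so on none. Among the 12 of these that could be tested, 4 were called lower and 2 called higher, and their part in other results was not tested. CDH1 differed most of these 12, higher by 2.36 on the log2 scale, or by as little as 0.95 under an alternative. It was dim, with 19 to 129 over the 6 arrays. In bulk RNA, fewer cells at a stage of the cell cycle and less RNA per cell cannot be told apart.

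Each siRNA lowered its own transcript. GLE1 (NM_001499) read 220, 257 and 262 on the DBP5 siRNA arrays and 42.4, 28.9 and 26.4 on the GLE1 siRNA arrays, against 313, 320 and 307 with control siRNA. It was 7.71-fold lower after GLE1 than after DBP5 knock-down (log2 difference -2.95, SD 0.50, n = 3 slides, limma adjusted p = 8.9e-07). DDX19B (NM_007242) read 76, 73.9 and 73.3 after DBP5 knock-down and 595, 565 and 541 after GLE1 knock-down, against 1200, 1130 and 1140 with control siRNA. It was 7.62-fold higher after GLE1 knock-down (2.93, SD 0.04, adjusted p = 3.1e-09). The groups did not overlap for either transcript. DDX19A, the close paralog of DDX19B, fell with it: it read 394, 381 and 358 after DBP5 knock-down and 3870, 3810 and 3740 after GLE1 knock-down (10.1-fold, adjusted p = 3e-09). The DBP5 siRNA arrays are therefore arrays with little of both paralogs. GLE1 knock-down also left DDX19B at 0.49 and DDX19A at 0.541 of control, while DBP5 knock-down left GLE1 at 0.783 of control (adjusted p = 0.091), so the groups differ in how low both partners stand. Ratios to control for both knock-downs share the 3 control arrays. With the authors' own values, made without background subtraction, the difference was -1.63 for GLE1, and it was 2.27 or more for DDX19B under every alternative.

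**Figure D1:**
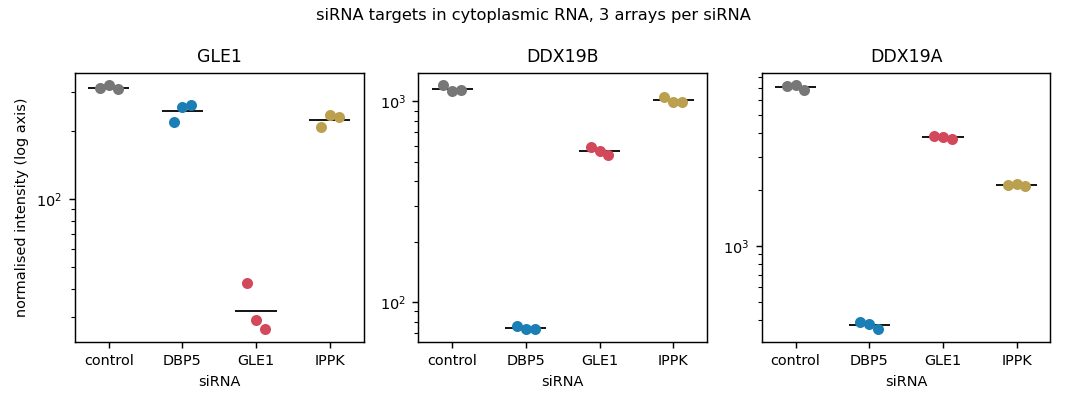
Normalised intensity (log axis) of GLE1, DDX19B and DDX19A on each array of the 4 siRNAs; points are arrays and bars are group means of log2 values. GLE1 is lowest on the 3 GLE1 siRNA arrays (26.4 to 42.4), and both DDX19 paralogs are lowest on the 3 DBP5 siRNA arrays.

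The knock-downs differed over a large part of the transcriptome and about equally in both directions. Of 20482 genes tested, each through its brightest probe, 6114 were lower after GLE1 than after DBP5 knock-down (29.9%) and 6063 were higher (29.6%), 59.5% in all. The methods' t-test, paired by slide, called fewer after adjustment, 2739 lower and 2479 higher, and kept 41.6% of these calls with none turned to the other direction. Of 25446 probes 29.8% were lower and 29.7% higher, also 59.5% in all. Most of these differences were small. Called and at least 2-fold lower were 1086 genes (5.3%), and called and at least 2-fold higher 962 (4.7%). Counted by the difference alone, without the call, 296 genes were at least 3-fold lower and 277 at least 3-fold higher. Among probes the 2-fold shares were 5.24% and 4.65%. The median difference was 0.03 and the median of its absolute value 0.30, beside a median SD over slides of 0.13. All 3 GLE1 arrays lay below all 3 DBP5 arrays in 6310 genes (30.8%) and above them in 6241 (30.5%), and the difference had the same sign on all 3 slides in 73.8%. These shares are the background against which the lists below are read: a list with about 3 in 10 members on each side resembles the genes at large.

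**Figure D2:**
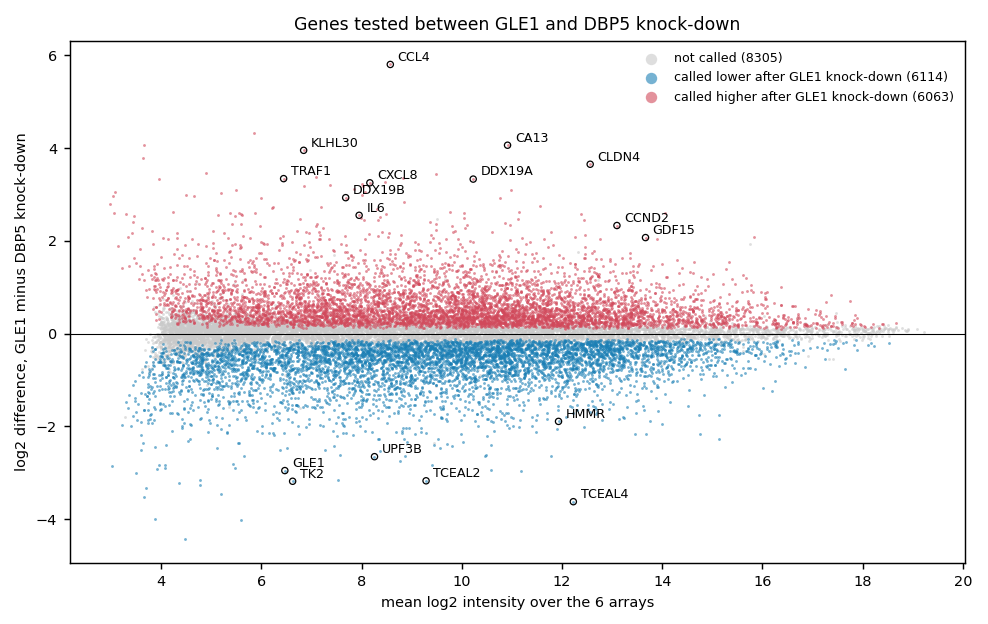
Each point is 1 of 20482 genes, with the mean log2 intensity over the 6 arrays on the x axis and the log2 difference, GLE1 minus DBP5 knock-down, on the y axis. The 6114 genes called lower (blue) and 6063 called higher (red) spread over the whole range of intensity, and the siRNA targets, TCEAL4 and CCL4 lie far from 0.

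The genes lowest after GLE1 relative to DBP5 knock-down came from several processes. They are the 12 with the largest negative difference among named genes well above background on all 6 arrays. TCEAL4, a member of the family of transcription elongation factor A-like proteins, read 17300, 16900 and 16200 after DBP5 knock-down and 1430, 1360 and 1310 after GLE1 knock-down. The groups lay 12.3-fold apart (-3.62, SD 0.03, adjusted p = 3e-09), and with control siRNA the gene read 15700, 16600 and 15500, as high as after DBP5 knock-down. Its relative TCEAL2 read 1810, 1810 and 1990 against 203, 233 and 192 (8.97-fold). Genes of mitochondria were among them, with TK2, the mitochondrial thymidine kinase, at 266, 297 and 330 against 33.8, 35.8 and 29 (9.06-fold). IDH3A, the catalytic subunit of the NAD-dependent isocitrate dehydrogenase, read 1040, 1250 and 1090 against 173, 175 and 159 (6.66-fold). MESD, a chaperone of the Wnt co-receptors, was 8.85-fold lower and STIMATE, an endoplasmic reticulum protein that regulates calcium entry, 7.79-fold. The pseudogene transcripts ZNF252P and ZNF204P were 7.67-fold and 7.43-fold lower and R3HDM1, which codes for a protein with an R3H domain, 7.08-fold. UPF3B, a factor of nonsense-mediated decay, was 6.26-fold lower, KIF3B, a kinesin motor of cilia and vesicles, 6.24-fold, and AFAP1L1, an actin filament-associated protein, 6.23-fold. In all 12 the groups did not overlap, and GLE1 knock-down left between 0.0689 (TCEAL2) and 0.184 (MESD) of control. After DBP5 knock-down the same genes stood between 0.608 (ZNF204P) and 1.63 (MESD) of control. The fold shrank by more than 1.5 times under at least 1 alternative for TK2 (to -1.66), MESD (-2.15), ZNF204P (-1.21) and UPF3B (-2.00).

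Of the genes higher after the knock-down of GLE1, 12 were named by the same rule. CCL4, a chemokine that attracts macrophages and T cells, read 59.6, 48.5 and 45.8 after DBP5 knock-down and 2790, 2790 and 2950 after GLE1 knock-down, 55.7-fold apart (5.80, SD 0.23, adjusted p = 3.1e-09). With control siRNA it read 81.9, 78.9 and 81, so the GLE1 siRNA arrays alone stood high. CA13, a cytosolic carbonic anhydrase, moved both ways from control: it read 2700, 2810 and 2620 with control siRNA, 537, 443 and 442 after DBP5 knock-down and 8500, 7600 and 7550 after GLE1 knock-down (16.7-fold). CLDN4, a claudin of tight junctions, read 1530, 1690 and 1930 against 21000, 22100 and 21100 (12.5-fold). BDKRB1, the inducible bradykinin receptor, read 223, 212 and 214 against 2050, 2430 and 2580 (10.8-fold). The others were KLHL30 (15.4-fold), the channel gene CALHM3 (10.4-fold), TRAF1, an adaptor of tumour necrosis factor receptors (10.1-fold), RRAD, a small GTPase (9.65-fold), the neutrophil chemokine CXCL8 (9.49-fold), the acute-phase gene SAA1 (9.38-fold), TNFRSF9, a co-stimulatory receptor (9.2-fold), and STAT4 (9.11-fold). The groups did not overlap in any of the 12, and KLHL30, RRAD and STAT4 lay above control after both knock-downs. Several of these are dim after DBP5 knock-down. With values that keep the background (normexp or the authors' own values) the differences were smaller for CCL4 (4.70), KLHL30 (2.36), CALHM3 (1.99), TRAF1 (1.80), RRAD (2.57), CXCL8 (2.55), SAA1 (2.54), TNFRSF9 (1.96) and STAT4 (2.37). All 24 genes named in the 2 directions kept their direction and call under each of 17 alternatives.

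Some transcripts were measured after only 1 of the knock-downs, and for them a fold is a lower bound. A probe was well above background on all DBP5 siRNA arrays and on no GLE1 siRNA array in 162 genes, of which 44 had a bound over 2-fold. The bound sets the mean of the bright group against the lowest signal well above background on the dim arrays, or the dim probe's own signal where that was higher. SULT1B1, a sulfotransferase, read 197, 189 and 197 after DBP5 knock-down and was not well above background after GLE1 knock-down, at least 13.5-fold lower. The bound was 7.31-fold for the homeobox gene HOXB8, whose DBP5 siRNA arrays spread from 51.2 to 235. It was 6.96-fold for B3GAT1, a glucuronyltransferase, 5.55-fold for CYB5RL and 5.08-fold for EPB41, a protein of the membrane skeleton. The reverse held for 75 genes, 19 with a bound over 2-fold. ECM2 read 48.9, 55.8 and 50.5 after GLE1 knock-down and was not well above background after DBP5 knock-down, at least 3.96-fold higher. The bound was 3.74-fold for FETUB, 3.3-fold for C10orf90 and 2.87-fold for the chloride channel gene CFTR. Such genes entered limma's test only through the knock-down in which they were bright, so its call on them is no support for the difference.

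The machinery around DBP5 and GLE1 itself showed no common direction. Of 15 genes for the complex at the pore and for inositol phosphates, 4 were lower and 6 higher, the 3 siRNA-related transcripts included, with a median difference of 0.02. IP6K2, a kinase that turns inositol hexakisphosphate into a pyrophosphate, read 5100, 5410 and 5310 after DBP5 knock-down and 2460, 2410 and 2360 after GLE1 knock-down (-1.13, SD 0.07, adjusted p = 1.8e-07). It stood above the control siRNA values of 3080, 3200 and 3150 after DBP5 knock-down and below them after GLE1 knock-down. IPPK read 296, 283 and 277 against 594, 540 and 538 (0.97, adjusted p = 3.4e-06), 0.42 of control after DBP5 knock-down. PPIP5K2 and ITPK1, further kinases of inositol phosphates, were higher by 0.53 and 0.52. IP6K1 differed by -0.01 (adjusted p = 0.91) and its groups overlapped. NUP214, the docking site of DBP5 on the pore, differed by -0.15 (adjusted p = 0.13), and NUP155 was lower (-0.59 on the log2 scale).

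Among 24 other nucleoporins, 10 were lower and 7 higher, and among 29 adaptors and receptors of RNA export 12 were lower and 5 higher, with a median of -0.13. AAAS, a nucleoporin of the cytoplasmic side, read 2340, 2750 and 2890 after DBP5 knock-down and 1500, 1470 and 1450 after GLE1 knock-down (-0.85). NUP43 of the scaffold went the other way, from 7410, 7300 and 6190 to 12700, 12900 and 13300 (0.90). XPO1, the exportin for proteins and some RNAs, read 8050, 7890 and 7930 against 4850, 4850 and 4840 (-0.72), and CETN3, a centrin, 4030, 3710 and 3810 against 1890, 1840 and 1830 (-1.05). PCID2, a subunit of the export complex TREX-2, read 24200, 19900 and 20200 against 52600, 51800 and 51200 (1.28), and NCBP2 of the cap-binding complex was higher by 0.87. THOC5 of the THO complex differed by 0.00 (adjusted p = 0.99). Groups overlapped in the last gene only among those named in this paragraph.

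Over the gene lists, cell cycle genes lay on the lower side and interleukins and p53 targets on the higher side. Lists of replication, mitosis, histones and homologous recombination had medians between -0.80 and -0.53, that of p53 targets was 0.55 and that of interleukins and colony-stimulating factors 1.25, while the median of all genes was 0.03. Each list is described by its counts and median alone.

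**Figure D3:**
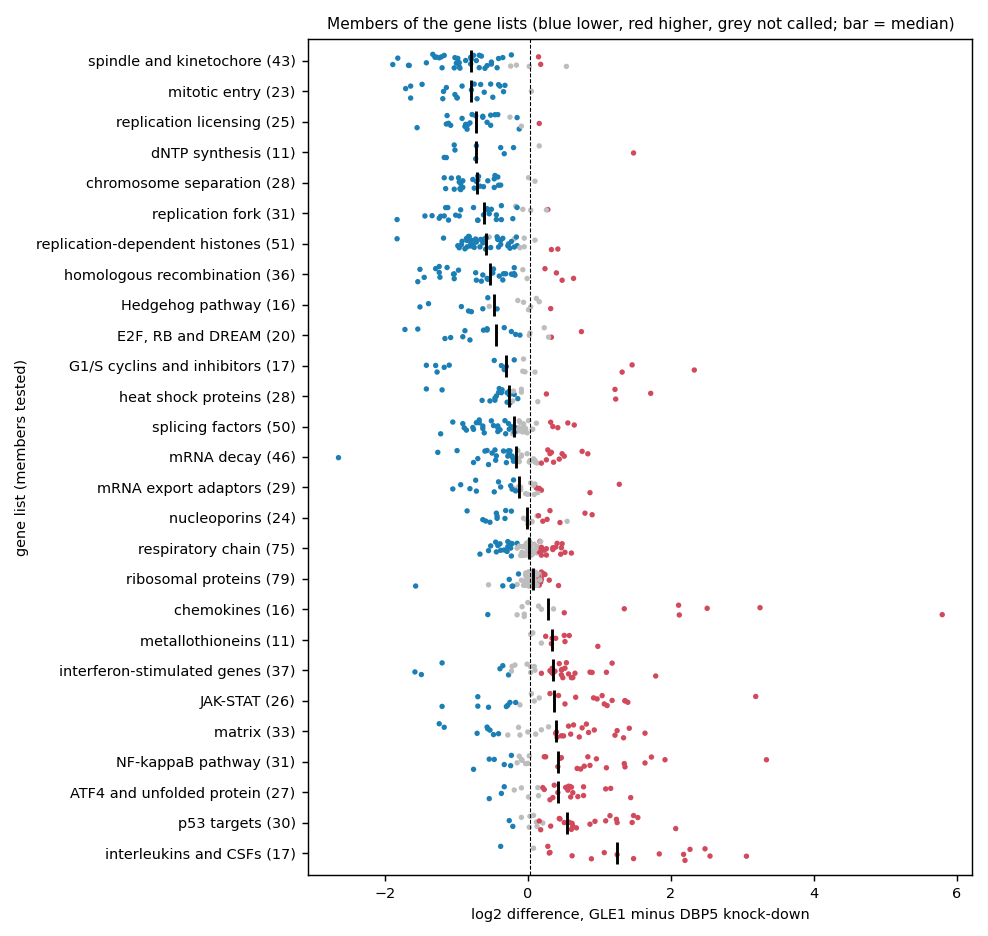
Log2 difference, GLE1 minus DBP5 knock-down, of each tested member (points) of 27 gene lists, with the median of a list as a bar and the median of all genes, 0.03, as a dashed line. The lists of the cell cycle lie mostly left of 0 and that of interleukins mostly right.

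Genes that license and copy DNA were lower after GLE1 knock-down, and their medians lay below control after both knock-downs. Of 25 licensing genes 22 were lower and 1 higher (median -0.73), and of 31 genes of the replication fork 26 were lower and 1 higher (median -0.62). Set against control, GLE1 knock-down gave medians of -1.32 and -1.06, and DBP5 knock-down -0.69 and -0.39. MCM6, a subunit of the replicative helicase, read 8410, 8130 and 7160 after DBP5 knock-down and 1920, 3220 and 3140 after GLE1 knock-down, against 18800, 19800 and 17800 with control siRNA (-1.55, SD 0.51, adjusted p = 3.9e-05). MCM5 and MCM4 of the same helicase were lower (-1.11 and -1.08 on the log2 scale), and MCM2 read 6170, 7490 and 7130 against 3880, 3730 and 3720 (-0.87). CDC6 and ORC1, which load the helicase, differed by -1.14 and -1.13, but CDC6 stood at 2.13 times control after DBP5 knock-down and at 0.967 after GLE1 knock-down. ORC4 was the one licensing gene called higher, by 0.16, a call that 7 alternatives lost, and ORC5 differed by -0.09 (adjusted p = 0.20).

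POLE2, a subunit of the leading-strand polymerase, kept its control level after DBP5 knock-down alone. It read 2880, 2960 and 2750 with control siRNA, 3080, 2790 and 2430 after DBP5 knock-down and 853, 720 and 750 after GLE1 knock-down (-1.83, SD 0.13, adjusted p = 1.6e-07). The histone chaperones ASF1B, CHAF1B and CHAF1A, which assemble new chromatin behind the fork, were lower (-1.44, -1.34 and -1.24 on the log2 scale), as was the nuclease DNA2 (-1.22). DNMT1, the maintenance methyltransferase, was higher by 0.28 and POLE3 differed by 0.04 (adjusted p = 0.51). Of 11 genes of nucleotide synthesis 9 were lower and 1 higher (median -0.72). RRM2, the S phase subunit of ribonucleotide reductase, read 3180, 3400 and 2750 against 1430, 1400 and 1310 (-1.17). DUT and TYMS of thymidylate synthesis were lower (-1.14 and -1.02 on the log2 scale). The exception was RRM2B, the p53-induced subunit of the same reductase, at 949, 911 and 936 against 2520, 2700 and 2590 (1.48).

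Among regulators of the G1/S transition, genes that drive it and genes that restrain it were found in both directions. E2F2, an activating E2F factor, read 20700, 23900 and 21700 with control siRNA, 3410, 3660 and 3540 after DBP5 knock-down and 1080, 1130 and 1010 after GLE1 knock-down (-1.72, SD 0.08, adjusted p = 6.7e-08). RBL1, a pocket protein, and LIN52 of the DREAM complex were lower (-1.54 and -1.16 on the log2 scale), as were the repressive RBL2 and E2F4 (-0.62 and -0.57), while E2F5, a repressive family member, and RB1 were higher by 0.75 and 0.33. Over these 20 E2F and DREAM genes 14 were lower and 2 higher (median -0.45). Of 17 cyclins, kinases and inhibitors of G1/S, 10 were lower and 3 higher (median -0.30). CCNE2 read 554, 489 and 501 against 193, 195 and 188 (-1.42), and CCNA2, CDC25A and SKP2 were lower (-1.27, -1.17 and -1.10 on the log2 scale). CCND2, a D-type cyclin, went the other way, from 4170, 3830 and 3730 to 21400, 18800 and 18800 (2.33, SD 0.04, adjusted p = 2.1e-08), and CCND1 was higher by 1.32. The kinase inhibitors CDKN2C, CDKN1B and CDKN2D were lower (-1.29, -0.47 and -0.37 on the log2 scale). CDKN1A, the inhibitor p21, read 1000, 1070 and 970 against 3130, 2630 and 2630 (1.46). CDK2 read 390, 429 and 407 after DBP5 knock-down and 365, 417 and 407 after GLE1 knock-down, overlapping groups at 0.418 and 0.406 of control (-0.04, adjusted p = 0.49).

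Most genes of mitosis were lower after GLE1 than after DBP5 knock-down. Of 23 genes of mitotic entry and its checkpoint 22 were lower (median -0.79), of 43 of spindle and kinetochore 37 lower and 2 higher (-0.80), and of 28 of the anaphase-promoting complex, cohesion and cytokinesis 26 lower (-0.71). Against control, the medians of the 3 lists were -1.32, -1.31 and -1.19 with the GLE1 siRNA, and -0.43, -0.45 and -0.43 with the DBP5 siRNA. CDC25C, the phosphatase that starts mitosis, read 676, 761 and 744 after DBP5 knock-down and 236, 216 and 214 after GLE1 knock-down (-1.71). AURKA, a kinase of the spindle poles, read 12900, 14000 and 13100 against 4840, 4710 and 4720 (-1.48), and PLK1, a central mitotic kinase, 1500, 1960 and 1700 against 741, 776 and 732 (-1.19, SD 0.16, adjusted p = 5.3e-06). CCNF and KIZ were lower (-1.64 on the log2 scale). MAD2L1 of the spindle checkpoint was not called (0.05, adjusted p = 0.60), with overlapping groups at 0.522 and 0.54 of control.

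HMMR, a spindle assembly factor, had the largest difference of the mitotic lists. It read 9270, 10600 and 8640 with control siRNA, 8710, 6760 and 7190 after DBP5 knock-down and 2160, 2000 and 1930 after GLE1 knock-down (-1.89, SD 0.13, adjusted p = 4e-07). CENPF, NDC80 and KIF22, of the kinetochore and the chromosome arms, were lower (-1.82, -1.67 and -1.42 on the log2 scale). SKA2 of the outer kinetochore rested in part on slide 1, with 1770, 1710 and 1740 after DBP5 knock-down against 248, 811 and 831 (-1.66, SD 1.02, adjusted p = 0.0026), and without that GLE1 array the difference was -1.09. The calls of CENPN (0.18) and SKA3 (0.15) as higher were lost under 5 and 6 alternatives. Among the genes of separation and cytokinesis, CDCA8, CEP55, INCENP and UBE2C were lower (-1.17, -1.15, -1.07 and -1.03 on the log2 scale), as was the proliferation marker MKI67 (-0.97). FZR1, an activator of the anaphase-promoting complex, read 1160, 1180 and 1080 against 1170, 1100 and 1160 (0.01, adjusted p = 0.90).

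The promoters of a few of these genes are shown because letters known as cell cycle elements recur in them. The windows run from 250 bases before to 50 bases after the start of the gene (RefSeq, GRCh38.p14), written 5′ to 3′ in the direction of the gene, and positions count from the start. Capitals mark matches on either strand to the E2F core TTTNNCGC in MCM6 and POLE2, and to the CHR element TTTGAA and the CCAAT box CCAAT in PLK1 and HMMR.
MCM6 (chr2:135876394-135876693, minus strand): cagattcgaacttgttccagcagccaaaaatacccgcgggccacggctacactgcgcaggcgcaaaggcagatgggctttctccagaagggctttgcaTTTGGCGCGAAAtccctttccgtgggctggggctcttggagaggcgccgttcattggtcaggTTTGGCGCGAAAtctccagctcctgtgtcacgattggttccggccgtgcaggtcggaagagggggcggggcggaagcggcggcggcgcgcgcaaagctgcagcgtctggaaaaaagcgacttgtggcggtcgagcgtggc
POLE2 (chr14:49688165-49688464, minus strand): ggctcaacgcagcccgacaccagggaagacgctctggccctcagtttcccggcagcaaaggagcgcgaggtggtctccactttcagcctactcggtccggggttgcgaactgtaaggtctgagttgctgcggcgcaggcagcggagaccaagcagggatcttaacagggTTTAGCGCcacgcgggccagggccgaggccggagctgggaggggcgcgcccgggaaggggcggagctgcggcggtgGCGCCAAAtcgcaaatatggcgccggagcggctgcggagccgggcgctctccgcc
PLK1 (chr16:23678639-23678938, plus strand): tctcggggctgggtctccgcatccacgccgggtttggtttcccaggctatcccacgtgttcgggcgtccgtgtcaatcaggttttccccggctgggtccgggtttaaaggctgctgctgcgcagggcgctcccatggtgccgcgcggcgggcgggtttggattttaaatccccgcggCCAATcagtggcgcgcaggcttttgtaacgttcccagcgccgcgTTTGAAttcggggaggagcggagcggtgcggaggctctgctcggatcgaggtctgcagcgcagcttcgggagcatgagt
HMMR (chr5:163460382-163460681, plus strand): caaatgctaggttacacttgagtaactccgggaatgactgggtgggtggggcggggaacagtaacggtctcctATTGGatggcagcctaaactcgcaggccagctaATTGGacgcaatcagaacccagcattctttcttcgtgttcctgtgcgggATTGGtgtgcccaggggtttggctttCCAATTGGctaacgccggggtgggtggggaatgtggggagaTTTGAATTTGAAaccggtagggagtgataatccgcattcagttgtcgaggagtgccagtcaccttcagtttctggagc
MCM6 held 4 matches in overlapping pairs, from -152 to -141 and from -90 to -79, and POLE2 held matches at -81 to -74 and -5 to 3. PLK1 held a CCAAT box at -73 to -69 and a CHR at -29 to -24, and HMMR 5 CCAAT boxes, from -177 on, and CHR matches at -28 to -23 and -22 to -17. The E2F core was found in 50% of the replication promoters with a window, in 9.65% of those of all coding genes tested and in 6.9% of all promoters in the table. The CHR was found in 65% of the mitotic promoters, 10.6% of those tested and 15.4% of all, and the CCAAT box in 66.2%, 36.4% and 35.7%. Among all genes called lower the shares were 11.3%, 11.7% and 40.2%. A match describes the letters in the window and says nothing about binding.

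Homologous recombination followed the same direction. Of 36 genes 30 were lower and 4 higher, with a median of -0.53 and medians against control of -1.09 after GLE1 and -0.52 after DBP5 knock-down. BRCA2, a central factor of the pathway, read 167, 177 and 185 after DBP5 knock-down and 54.3, 64.2 and 63 after GLE1 knock-down (-1.54, SD 0.08, adjusted p = 6.6e-08), and with values that keep the background the difference was -0.90. FANCD2 and FANCA of the crosslink repair pathway were lower (-1.45 and -1.29 on the log2 scale), as was BRCA1 (-1.24). FANCC was higher by 0.48, yet lay at 0.357 of control after DBP5 and 0.497 after GLE1 knock-down.

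Other repair genes were split. Of 14 damage checkpoint genes 9 were lower and 2 higher (median -0.30), led by CHEK2 (-0.94) and CHEK1 (-0.91), the effector kinases, which read 1230, 1340 and 1370 against 679, 707 and 667 and 2810, 2900 and 2750 against 1520, 1550 and 1440. The apical kinase ATM was higher by 0.40, and the call of HUS1 as higher (0.51) was lost under 3 alternatives. Of 7 mismatch repair genes 4 were lower, MSH6 (-0.92) among them, and 3 higher, among them PMS2 (0.54). Of 17 genes of excision repair 11 were lower and 5 higher. ERCC5, an endonuclease, read 920, 1040 and 1040 against 455, 503 and 476 (-1.06), and DDB1, part of a damage-sensing ubiquitin ligase, 6670, 7870 and 7260 against 18800, 18100 and 17800 (1.33).

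Replication-dependent histones, whose mRNAs end in a stem-loop in place of a poly(A) tail, were lower in 43 of 51 genes tested and higher in 2 (median -0.59). H1-1, a linker histone, read 16800, 14500 and 20200 after DBP5 knock-down and 4650, 5340 and 4390 after GLE1 knock-down (-1.83, SD 0.38, adjusted p = 2.5e-06). H2BC12 read 97800, 101000 and 98500 against 43900, 41400 and 46100 (-1.18) and stood at 1.31 of control after DBP5 knock-down and at 0.58 after GLE1 knock-down. H2BC3, H3C4 and H2BC8 were lower (-0.98, -0.96 and -0.93 on the log2 scale). The linker histones H1-2 and H1-3 were higher by 0.42 and 0.33, and H3C1 differed by -0.05 (adjusted p = 0.47). The histone genes are near-identical copies, so a probe can take up RNA of its neighbours.

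Targets of p53 were higher after GLE1 knock-down in 21 of 30 genes and lower in 2 (median 0.55, against control 1.16 after GLE1 and 0.51 after DBP5 knock-down). GDF15, a secreted stress factor, read 10800, 10500 and 9980 with control siRNA, 6710, 6010 and 6370 after DBP5 knock-down and 26600, 26200 and 27000 after GLE1 knock-down (2.07, SD 0.07, adjusted p = 3.1e-08). TIGAR, a regulator of glycolysis, read 1240, 1020 and 1030 against 3260, 3090 and 3190 (1.54) and stood above control after both. CDKN1A and RRM2B, given above, were members too, and the death receptor TNFRSF10B read 4150, 3990 and 3890 against 9160, 9390 and 10100 (1.25). MDM2, the ligase that degrades p53, was slightly lower (-0.26, adjusted p = 0.0091), with 930, 905 and 834 against 706, 819 and 708. The call of XPC as lower (-0.21) was lost under 6 alternatives, and PMAIP1 differed by 0.02 (adjusted p = 0.83). Of 18 BCL2 family genes 11 were higher and 2 lower (median 0.36). Among them the death-promoting BIK read 708, 708 and 712 against 2250, 2060 and 1970 (1.56), and BBC3, BMF and HRK of the same class were higher by 0.94, 0.84 and 0.84. Survival genes of the family lay on both sides: BCL2A1, MCL1 and BCL2L1 were higher by 0.64, 0.47 and 0.30, with the call lost under 5 alternatives for MCL1 and 2 for BCL2L1, and BCL2 and BCL2L2 were lower (-0.29 and -0.23 on the log2 scale).

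**Figure D4:**
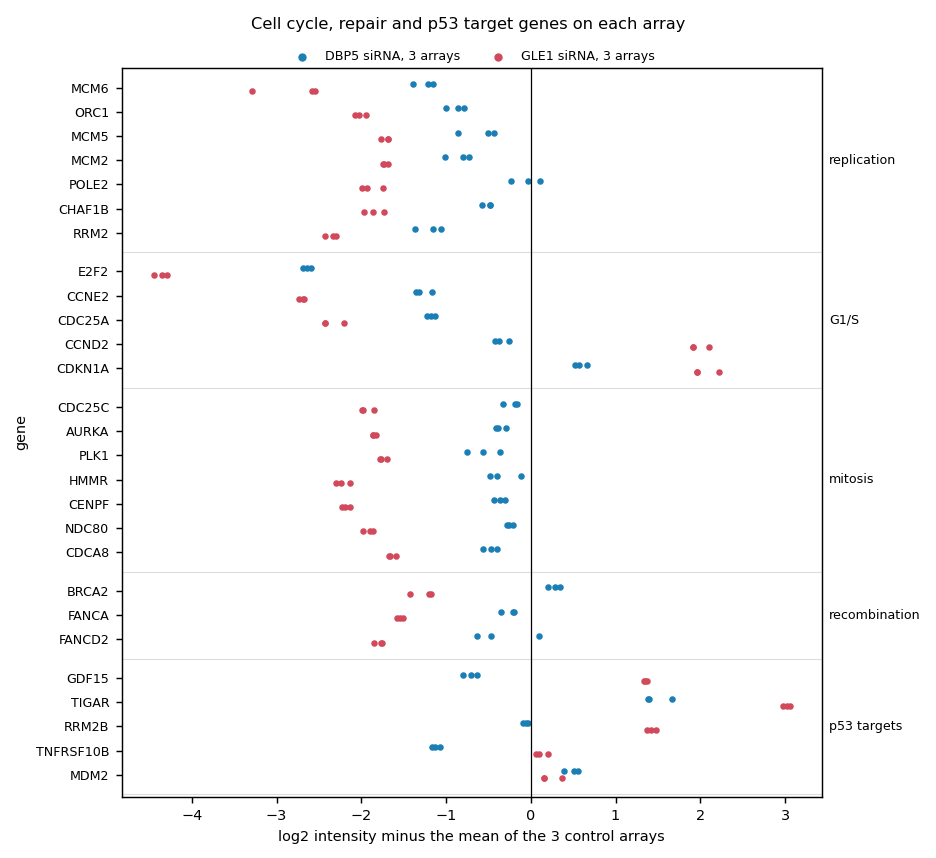
Log2 intensity of cell cycle, recombination and p53 target genes on each DBP5 (blue) and GLE1 (red) siRNA array minus the mean of the 3 control siRNA arrays, so 0 is the control level. The red points lie left of the blue ones for E2F2, POLE2 and HMMR and right of them for CCND2, CDKN1A and GDF15.

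Several chemokines and most interleukins measured stood higher after the knock-down of GLE1. Of 24 chemokine genes 16 could be tested, and 7 were higher and 1 lower (median 0.28). This median was 0.11 without DBP5 replicate 3, 0.18 without GLE1 replicate 3 and 0.14 with normexp values, and it was 0.11, 0.17 and 0.53 within the 3 slides. CXCL8 read 820, 840 and 855 with control siRNA, 96.3, 93.5 and 89.6 after DBP5 knock-down and 785, 980 and 897 after GLE1 knock-down, so the GLE1 siRNA arrays lay around the control level (3.25, SD 0.19, adjusted p = 1.9e-08). CCL20, which attracts lymphocytes, read 165, 134 and 117 against 995, 526 and 919 (2.51) and was below control after both, at 0.0657 and 0.375. CCL4, given above, and CCL3 and CXCL12 differed from this. CCL3, a close relative of CCL4, read 2850, 2620 and 2640 against 11500, 11600 and 12100 (2.12), 1.16 and 5.03 times control. CXCL12 read 41.9, 38.5 and 44.4 against 165, 195 and 179 (2.11, or 1.12 with values that keep the background). CCL28 was lower (-0.56), and CXCL5 differed by 0.00 (adjusted p = 0.98).

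Of 21 interleukin and colony-stimulating factor genes 17 could be tested, and 15 were higher, 10 of them at least 2-fold, and 1 lower. The median was 1.25, and against control it was 0.18 after GLE1 knock-down and -1.36 after DBP5 knock-down. CSF2, the growth factor of granulocytes and macrophages, read 928, 913 and 977 with control siRNA, 94.8, 102 and 82.6 after DBP5 knock-down and 672, 814 and 854 after GLE1 knock-down (3.06, SD 0.28, adjusted p = 6.5e-08, or 2.34 with values that keep the background). IL6, the main inducer of the acute-phase response, read 393, 460 and 409 with control siRNA, 110, 105 and 92.4 after DBP5 knock-down and 532, 643 and 626 after GLE1 knock-down (2.55, SD 0.25, adjusted p = 7.8e-08). The DBP5 siRNA arrays lay below the control arrays and the GLE1 siRNA arrays above them. IL24 and IL15 were higher by 2.48 and 2.27 and stood at 0.217 and 0.212 of control after DBP5 knock-down, at 1.21 and 1.03 after GLE1 knock-down. IL11 read 1850, 1550 and 1560 against 7810, 7340 and 7600 (2.20). IL7 was lower (-0.38, adjusted p = 0.0041), and IL33 differed by 0.08 (adjusted p = 0.72).

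The promoter of IL6 is shown because its NF-kappaB match lies close to the start of the gene. Capitals mark the match to the NF-kappaB motif, at -73 to -64, in the same window and build as above, searched on both strands.
IL6 (chr7:22726950-22727249, plus strand): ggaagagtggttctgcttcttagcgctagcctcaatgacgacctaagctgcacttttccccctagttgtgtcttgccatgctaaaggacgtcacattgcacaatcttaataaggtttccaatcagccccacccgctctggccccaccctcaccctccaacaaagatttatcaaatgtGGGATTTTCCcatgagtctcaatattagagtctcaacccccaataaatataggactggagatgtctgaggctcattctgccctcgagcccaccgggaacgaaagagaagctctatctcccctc
This motif was found in 7.47% of the promoters of coding genes tested and in 6.47% of all in the table. Too few of the cytokine genes (69.7%) had a window for a share, so the comparison with them is void.

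Genes of NF-kappaB signalling were higher in 18 and lower in 6 of 31 cases (median 0.42, or 0.25 with the mean of a gene's probes). TRAF1 read 30.2, 24.5 and 27.6 after DBP5 knock-down and 274, 289 and 268 after GLE1 knock-down, on either side of 71.5, 61.6 and 68.7 with control siRNA (3.34). Feedback inhibitors of the pathway were among the higher genes: TNFAIP3 read 429, 361 and 444 against 1410, 1290 and 1390 (1.73), and CYLD 39.5, 47.3 and 44.1 against 152, 174 and 168 (1.92, or 1.05 with values that keep the background). BIRC3 and BCL3 were higher by 1.64 and 1.36. NFKBIZ and TRAF3 were lower (-0.76 and -0.54 on the log2 scale), and TRAF6 differed by 0.00 (adjusted p = 0.98).

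Of 26 JAK-STAT genes 14 were higher and 8 lower (median 0.37). STAT4, a transducer of interleukin 12 signals, read 76.9, 94.8 and 88.4 against 716, 808 and 841 (3.19), and control siRNA gave 39.3, 41.8 and 38.4. SOCS7, a member of the family of cytokine signalling suppressors, went the other way, from 312, 370 and 411 to 201, 234 and 235 (-0.70). STAT2, part of the interferon response factor, read 4100, 3940 and 4040 against 9360, 9200 and 8750 (1.18). The interleukin 6 receptor gene IL6R and the inhibitors SOCS3 and SOCS4 were higher by 1.40, 1.36 and 1.36, while OSMR differed by 0.05 (adjusted p = 0.70). Interferon-stimulated genes also divided, with 23 of 37 higher and 6 lower (median 0.35, or 0.19 with normexp and 0.18 with the authors' values). TAP2, a peptide transporter of antigen presentation, read 1040, 950 and 908 against 3060, 3300 and 3660 (1.79), and its partner TAP1 was higher by 1.10. IFIT1, a sensor of foreign RNA caps, read 430, 437 and 456 against 145, 154 and 144 (-1.58), and GBP3 was lower (-1.49 on the log2 scale). Among 18 RNA sensors and adaptors 9 were higher and 3 lower. STING1 and MYD88 were higher by 1.49 and 1.48, and TLR3, dim after DBP5 knock-down, by 1.47 (0.74 with values that keep the background). IRF3 and MAVS were lower (-0.51 and -0.50 on the log2 scale).

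**Figure D5:**
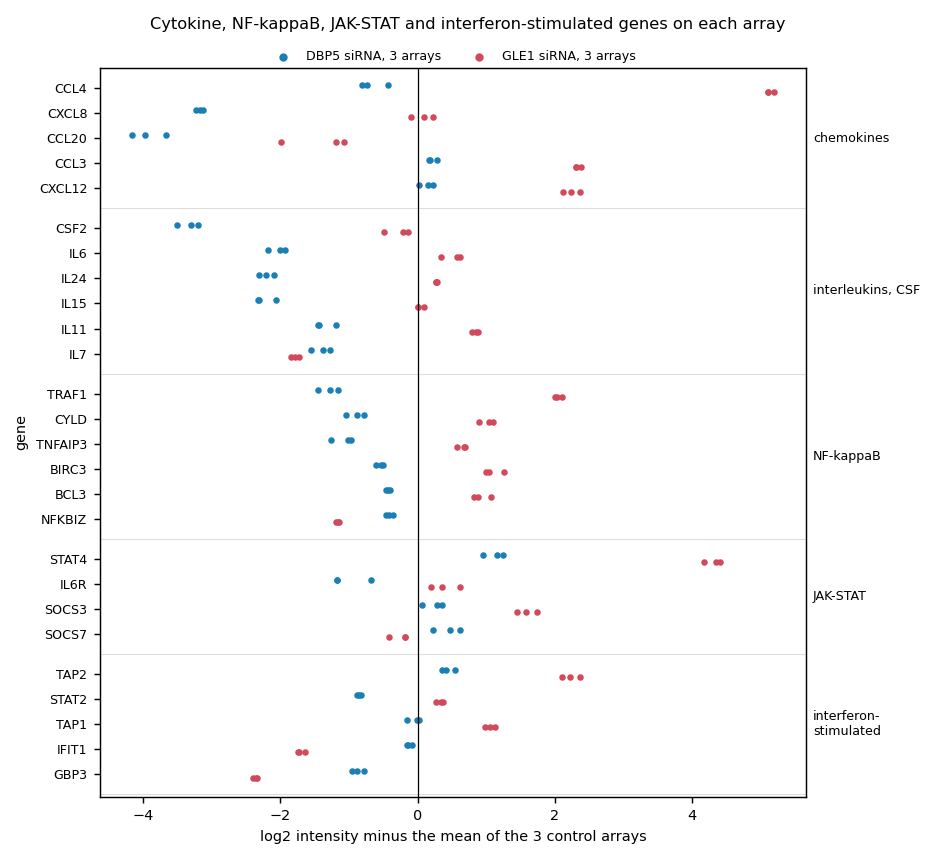
Log2 intensity of chemokine, interleukin, NF-kappaB, JAK-STAT and interferon-stimulated genes on each DBP5 (blue) and GLE1 (red) siRNA array minus the mean of the 3 control siRNA arrays. For CXCL8 and CSF2 the blue points lie far below 0 and the red ones near it, while for CCL4 the red points lie far above 0.

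Immediate early and AP-1 genes held large differences both ways, 11 higher and 8 lower of 24 (median 0.19, or 0.10 with normexp values). DUSP1, a phosphatase that ends MAP kinase signals, read 1990, 1870 and 1750 against 7030, 6970 and 6880 (1.90), and JUN, a subunit of AP-1, 3130, 2470 and 2520 against 6740, 6540 and 6720 (1.31). DUSP6, the phosphatase of ERK, read 3430, 3620 and 4300 against 1150, 1180 and 952 (-1.79), and EGR1 was lower (-1.14 on the log2 scale). ATF3, DUSP5 and FOSL2 were higher by 1.16, 1.02 and 0.89. IER2 differed by 0.01 (adjusted p = 0.89).

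Hedgehog signalling was lower in 8 of 16 genes and higher in 1 (median -0.48). The median was -0.26 without DBP5 replicate 3, -0.30 without GLE1 replicate 3 and -0.19 with the mean of a gene's probes, and -0.19, -0.37 and -0.48 within the 3 slides. SMO, the signal transducer of the pathway, read 2150, 2090 and 2060 with control siRNA, 3340, 3170 and 3200 after DBP5 knock-down and 1110, 1140 and 1160 after GLE1 knock-down, on either side of control (-1.51, SD 0.07, adjusted p = 5.6e-08). The co-receptors CDON and GAS1 also stood above control after DBP5 knock-down and below it after GLE1 knock-down (-1.39 and -0.83), and CDON gave -0.80 with values that keep the background. GLI1 and HHIP, which the pathway induces, were lower (-0.93 and -0.79 on the log2 scale) and below control after both. STK36 was higher by 0.32 and SPOP differed by 0.01 (adjusted p = 0.91).

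Genes of TGF-beta and BMP signalling were higher in 16 and lower in 9 of 34 cases, and genes of the matrix in 18 and 8 of 33. SMAD3, a transducer of TGF-beta, read 1070, 1190 and 1040 after DBP5 knock-down and 2840, 2910 and 2860 after GLE1 knock-down (1.38), at 0.371 and 0.966 of control. The receptor TGFBR1 read 87.1, 76.6 and 86.8 against 20.9, 15.4 and 20.4 (-2.15), was well above background on only 2 of the GLE1 siRNA arrays and gave -0.70 with values that keep the background. The ligands TGFB2 and BMP2 were higher by 1.06 and 0.99. COL12A1, a collagen on fibril surfaces, read 1620, 1630 and 1440 against 3930, 4910 and 6030 (1.64), and LAMC1, a laminin chain, 1120, 1350 and 1120 against 2510, 3330 and 3920 (1.42). PLOD2, COL5A2 and THBS1 were higher by 1.34, 1.25 and 1.22, while the crosslinking enzyme LOX and COL13A1 were lower (-1.17 and -1.24 on the log2 scale). The matrix genes varied with the slide, with medians of 0.07, 0.49 and 0.64 on slides 1, 2 and 3 beside 0.40 for the slides together.

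Stress programmes did not move as one. Of 27 genes of ATF4 and the unfolded protein response 19 were higher and 3 lower (median 0.42), and of 28 heat shock genes and chaperones 19 were lower and 4 higher (median -0.27). DDIT4, an inhibitor of the growth kinase mTORC1, read 2370, 2750 and 2410 against 7140, 7050 and 6200 (1.44), and SESN2, CHAC1 and PDIA4 were higher by 1.09, 0.78 and 0.78. PSAT1 was lower (-0.54 on the log2 scale), the call of SLC7A11 as lower (-0.37) was lost under 5 alternatives, and HSP90B1 differed by 0.01 (adjusted p = 0.91). HSPA1A, the inducible HSP70, read 18100, 19600 and 20100 against 7290, 7110 and 7210 (-1.42), and its near-identical copy HSPA1B was lower (-1.20 on the log2 scale). The small heat shock genes HSPB8 and CRYAB went up in the same arrays, with HSPB8 at 1320, 1430 and 1300 against 4610, 4370 and 4400 (1.72) and CRYAB higher by 1.23. Of 11 metallothioneins and zinc response genes 8 were higher and none lower (median 0.34), led by their regulator MTF1 at 943, 818 and 881 against 1730, 1750 and 1710 (0.98).

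Genes that handle RNA after transcription leaned lower. Of 46 mRNA decay genes 22 were lower and 11 higher (median -0.17), and of 50 splicing factors 27 lower and 5 higher (median -0.20). UPF3B of nonsense-mediated decay read 805, 747 and 743 after DBP5 knock-down and at most 137 on each GLE1 siRNA array (-2.65), and its paralog UPF3A 1060, 1220 and 1370 against 467, 524 and 526 (-1.26). EXOSC10, a nuclease of the nuclear exosome, was lower (-0.99 on the log2 scale), and XRN1, the cytoplasmic 5′ exonuclease, read 189, 168 and 173 against 325, 316 and 306 (0.84). SNRPF of the spliceosome core and HNRNPD, an AU-rich element binding protein, were lower (-1.22 and -1.05 on the log2 scale), and SRSF6 was higher by 0.65. Of 21 noncoding RNAs 14 were higher and 2 lower (median 0.28). The list holds long noncoding RNAs, several of which host snoRNAs, and the smaller RNAs TERC, RMRP, RPPH1 and RN7SK, of which TERC was among the higher (0.28), a call lost under 2 alternatives. The snoRNA hosts SNHG1 and GAS5 read 15500, 15300 and 13600 against 44100, 42200 and 43600 (1.55) and 60600, 57200 and 60900 against 121000, 120000 and 117000 (1.00). OIP5-AS1 was lower (-1.20 on the log2 scale), the other gene counted as lower, MIAT, was not well above background on any GLE1 siRNA array and entered the test only through its DBP5 siRNA arrays, and MALAT1 differed by 0.20 with overlapping groups (adjusted p = 0.43).

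The medians of large housekeeping machines lay near 0. Of 79 ribosomal protein genes 6 were lower and 12 higher (median 0.07), against 29.9% and 29.6% over all genes. RPL27A stood out of them with 1340, 1300 and 1280 after DBP5 knock-down and 435, 430 and 450 after GLE1 knock-down (-1.57), and control siRNA put it at the level of GLE1 knock-down (0.981). Oxidative phosphorylation gave 18 lower and 18 higher of 75 (median 0.01), the proteasome 18 and 6 of 41 (-0.09) and the mitochondrial ribosome 29 and 12 of 77 (-0.07), in which MRPS34 read 12300, 14400 and 14400 against 4630, 4400 and 4340 (-1.62). The share of lower genes was above that of all genes for the proteasome and the mitochondrial ribosome. Of 48 translation factors 13 were lower and 19 higher (median -0.01), a larger share higher than over all genes. EIF3A, the scaffold of initiation factor 3, read 42000, 35000 and 42800 against 13800, 13900 and 13200 (-1.55), EIF5B was lower (-1.29 on the log2 scale) and EIF4A1 higher by 0.89.

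Gene span went with the share of genes called higher. Over 4 groups of protein-coding genes from the shortest to the longest span in the genome, 26.3%, 29.3%, 32.9% and 37.1% were higher after GLE1 knock-down, while 31.1%, 35%, 35.1% and 32.4% were lower. This is a description across genes, which are not independent of each other.

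Different probes of a gene did not always go the same way. Of 3981 genes with at least 2 probes kept, all probes were called the same way in 1564 (39.3%), and probes were called in both directions in 335 (8.41%). Probes went at least 2-fold both ways in 6 genes, HNRNPA3, LARP1B, MAP3K20, NETO1, TMEM87A and TTC28-AS1. The lower probe of LARP1B was well above background on no GLE1 siRNA array, and the higher probe of NETO1 on no DBP5 siRNA array. They entered the test only through the knock-down in which they were bright, so their calls are no support for opposite directions. LARP1B and NETO1 are counted in the 335 as well. In MAP3K20, a stress-activated kinase, the probe for NM_133646 read 4100, 3440 and 3370 after DBP5 knock-down and 8520, 8420 and 7890 after GLE1 knock-down (1.19), and the brighter probe for NM_016653 read 6640, 6300 and 6930 against 2830, 2790 and 2810 (-1.23). In TTC28-AS1, a noncoding RNA, the probe for NR_026962 read 441, 406 and 383 against 1040, 1020 and 1020 (1.33) and that for NR_026963 1290, 1360 and 1390 against 514, 506 and 546 (-1.37). The groups did not overlap at any of these 4 probes.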

How the data were processed

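Arrays (12, Agilent, one-colour, U2OS cytoplasmic RNA) were grouped by their titles into 4 siRNAs, control, DBP5, GLE1 and IPPK, with 3 arrays each. The files the authors deposited per array come from Feature Extraction 10.7.3.1 (design on hg19) and give a spot's linear intensity after background subtraction. They also deposited processed log2 values, described as LOESS-normalised in R, which followed the log2 of the unsubtracted signal (r at least 0.9998). Here log2 of the subtracted intensity was normalised by cyclic loess over 12 arrays, with control and outlier spots left out and spots of a probe averaged. Probes were kept where well above background on all 3 GLE1 or all 3 DBP5 siRNA arrays, 25446 of 34127 (74.6%). Fits used limma 3.58.1 in R 4.3.3, two-sided, with 1 mean per siRNA and the slide as a block (6 residual degrees of freedom), and Benjamini-Hochberg adjustment over all probes kept. A gene is its brightest kept probe over the 6 arrays. The number of arrays limits the precision.

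Slides pair the arrays: deviations from group means correlated at 0.313 to 0.403 for the GLE1 and DBP5 siRNA arrays of a slide and at -0.235 to -0.105 otherwise. Accessions named 26445 probes (77.5%) through a RefSeq table (GRCh38.p14), and the others kept the array's names. The members and the gene lists were chosen with earlier results of these data known. Named genes are the siRNA targets, the 12 with the largest difference each way (RefSeq name, called, well above background on 6 arrays, same sign on 3 slides), up to 5 members of a list in its main direction, 2 in the other and the least different ones, list genes the study names, and the 5 largest bounds each way. Some genes that this rule names are not reported here. In 3 genes an outlier spot left fewer than 6 arrays. Alternatives were the fit without the slide, the 6 arrays alone, scaling to the 75th percentile, quantile normalisation, normexp (offset 50, on the median spot signal, the one held here), the authors' values, other filters, other probe rules, the methods' paired t-test and each array left out. Counts of alternatives that lost a call leave out the t-test. In simulated data over 25440 probes, changes of 0.5, 1 and 2 (log2) were set in 67, 67 and 66 probes. Of these limma recovered 61.2%, 88.1% and 100%, with 11 false calls. A far larger share of probes, 59.5%, was called in the real data, so these rates need not carry over to them. Python 3.11.15, pandas 2.3.3 and matplotlib 3.10.9 made tables and figures.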

Additional observations from a re-analysis of the deposited data

How the results depend on the processing

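No gene called changed to the opposite call under any alternative. Of 12177 genes called, 92.3% kept their call without the replicate block, where 5806 genes were lower and 5521 higher (probes 7183 and 6890), and 86.7% with the 6 arrays alone, 96.9% with scaling to the 75th percentile, 98.1% with quantile normalisation, 93.6% with normexp, 93.6% with the authors' values and 92.9% without a filter. Leaving out each array in turn kept 86.7% to 91.4% and gave 5444 to 5926 genes lower and 5246 to 5842 higher. The methods' t-test, paired by slide, called 2739 genes lower and 2479 higher after adjustment (probes 3283 and 3035), and 4856 and 4808 unadjusted, and kept 41.6% and 74.4% of the calls. The siRNA targets kept direction and call throughout. Of 690 list medians over 46 lists under alternatives, 613 moved by no more than the spread over slides and 76 moved by more. The other 1 reversed beyond that spread, oxidative phosphorylation at -0.02 with quantile normalisation. A change of sign within the spread is counted among the 613. The median of the pore complex and inositol phosphate genes, for example, went from 0.02 to -0.01 with the mean of a gene's probes. The median of homologous recombination was -0.55 with 75th percentile scaling, -0.49 with normexp, -0.48 with the authors' values, -0.51 with the mean of a gene's probes and -0.56 to -0.51 with an array left out. The chemokine, hedgehog, interferon, NF-kappaB and AP-1 medians, given with their lists, moved by over 1.5 times under some alternatives. The median of interleukins was 0.84 with normexp and with the authors' values, that of mitotic entry -0.76 and -0.73 in the same order. That of p53 targets was 0.54 (6 arrays alone, 75th percentile, authors' values), 0.53 (quantile), 0.52 (normexp), 0.51 (mean of probes) and 0.52 to 0.56 with an array left out. With an array left out the median was -0.83 to -0.77 for mitotic entry and -0.85 to -0.79 for spindle genes, and the call of SLC7A11 was lost without replicate 1 of either siRNA (smallest difference -0.21). With normexp or the authors' values the smallest differences were -0.71 for CDC6, 0.49 for E2F5, -0.28 for CCL28, -0.21 for IL7, -0.46 for NFKBIZ, -0.47 for GAS1 and -0.45 for HHIP. The cause of these moves was not tested. For the 162 and 75 genes not well above background after 1 of the knock-downs, the signal gives only a bound.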

Other observations

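HMOX1, the inducible heme oxygenase, read 29500, 28800 and 26900 after DBP5 knock-down and 122000, 129000 and 112000 after GLE1 knock-down (2.09, SD 0.06, limma adjusted p = 4.5e-08), 1.96 and 8.36 times control. Of 21 NRF2 targets 8 were higher, HMOX1 included, and 4 lower, and of 30 genes of hypoxia and glycolysis 12 were higher and 9 lower, against 29.6% higher and 29.9% lower over all genes. HIF1A, the oxygen-regulated subunit, read 1430, 1520 and 1490 against 3270, 3360 and 3210 (1.15), and HIF1AN, the hydroxylase that inhibits it, 348, 428 and 420 against 109, 99.5 and 93.7 (-1.98). SLC2A1, the glucose transporter, was higher by 1.35 and ADM lower (-1.26 on the log2 scale). Of 27 cholesterol genes 11 were higher and 7 lower: HMGCS1, an early enzyme of the synthesis, was higher by 1.14, while STARD4 read 8310, 7750 and 7480 against 2900, 2830 and 2990 (-1.43) and EBP was lower (-1.33 on the log2 scale).

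ATG5, needed to form autophagosomes, read 3940, 3890 and 3830 after DBP5 knock-down and 1110, 1140 and 1080 after GLE1 knock-down (-1.81, SD 0.04, limma adjusted p = 3.3e-08), while ULK1, the kinase that starts autophagy, was higher by 1.14 among 35 lysosome and autophagy genes of which 14 were higher and 10 lower. Of 38 integrin and actin genes 18 were higher and 8 lower, with ITGA3 at 2370, 2630 and 2700 against 5030, 5230 and 6200 (1.09) and ACTA2 at 776, 916 and 895 against 423, 403 and 437 (-1.03). HDAC1, a histone deacetylase, read 13900, 17400 and 16400 against 6170, 6640 and 6100 (-1.33), at 0.969 and 0.386 of control, in a list of 20 deacetylase complex genes of which 8 were lower and 7 higher.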
